A study of Mus musculus with 6 samples.

Results

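The genes described here are 10 genes of epidermal growth factor (EGF) signaling in 4T1 cells, a mouse mammary carcinoma line. They are the ligand genes Areg, Ereg, Hbegf, Tgfa, Epgn and Btc, the receptor genes Egfr, Erbb2 and Erbb3, and Errfi1, the gene of a receptor inhibitor. They were taken by symbol from the table of read counts, and all 10 were among its 22116 named genes. Control cells received DMSO, the vehicle, and treated cells received 10 μM P3FI-90, which the study uses as an inhibitor of the histone demethylase KDM3B, both for 24 h. There were 3 RNA-seq libraries per group. The study's methods say in general that experiments were repeated independently, but no label or method ties each library to its own culture, so p-values measure the spread between these libraries, which may be technical. Only 1 cell line, dose and time point was sequenced.

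EGF ligands are made as membrane proteins, and metalloproteases cut them free from the cell surface. A ligand brings receptors together in pairs, whose kinase domains then phosphorylate the partner and switch on the RAS to ERK and PI3K to AKT pathways. EGFR binds amphiregulin (Areg), TGFα and EGF, while HB-EGF, betacellulin (Btc) and epiregulin (Ereg) can also bind ERBB4. ERBB2 has no known ligand and acts as the preferred partner of the others, and ERBB3, which has little kinase activity of its own, binds neuregulins and recruits PI3K. MIG6, the product of Errfi1, binds the kinase domain of active receptors and blocks it. ERBB2, known in patients as HER2, is amplified in a class of breast cancers.

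After P3FI-90 treatment, Erbb2, Erbb3 and Errfi1 each fell more than 2-fold, Egfr rose 1.60-fold, and the ligands split. Hbegf and Btc rose 1.27-fold and 1.83-fold, Tgfa fell 1.55-fold, Areg and Epgn did not pass the test, and Ereg had no counts. Of the 9 genes that passed the filter on low counts, 3 were higher and 4 lower. Calls here and below rest on edgeR's quasi-likelihood test, with p adjusted over all genes tested and a threshold of 0.05. Over all 12288 genes tested, 79.3% were called, 39.9% as higher and 39.4% as lower, so a call by itself does not set these genes apart. These were 4908 higher and 4841 lower genes, and 6179 and 3641 when libraries were scaled by total counts, under which the 7 calls kept their direction. The groups did not overlap for 7 of the 9 genes, against 81.2% of all genes tested. The median log2 fold change was −0.13 over the 9 genes and 0.01 over all genes. With 3 libraries against 3, an exact permutation test of a single value cannot give a p below 0.1.

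The levels below are normalized counts, which are counts scaled by edgeR's TMM method to the mean effective library size. The libraries held between 31327094 and 37395732 counts. Counts of 2 were more frequent than counts of 1 in all 6 libraries, and the way mates of a pair entered the counts was not tested. TMM factors averaged 0.928 in DMSO and 1.08 in P3FI-90, and scaling by total counts alone raised all log2 fold changes by a median of 0.21. Longer genes were higher in general, with a median log2 fold change of −0.28 in the shortest of 5 equal length bins (204 to 2499 exon bases) and 0.26 in the longest (7599 to 123179). Of 10 epithelial markers used to check the label, Krt5 was at 0. The other 9 were present and lower after P3FI-90 (median log2 fold change −0.82), against 39.4% of all genes tested. Krt14, Epcam, Krt18 and Krt8 fell most. The summed level of the epithelial markers was 124800 to 130900 normalized counts in DMSO and 64800 to 67750 in P3FI-90. In bulk RNA, fewer cells of a type and less RNA per cell cannot be told apart. Of the leukocyte markers, Adgre1 was at 0 in every library, 4 of 10 passed the filter (Csf1r was higher and Cd14 lower), and the summed level was 921 to 972 normalized counts in DMSO and 594 to 746 in P3FI-90. Most of this sum was Cd14 (mean 508 in DMSO and 215 in P3FI-90) and Cd68 (382 and 330), while Ptprc had means of 8.78 and 13.2. The part of these marker levels in the results below was not tested. Of 6 endothelial markers only Pecam1 passed the filter, the sum was 0 to 13.3 in DMSO and 21.6 to 35.3 in P3FI-90, and Vwf was at 0. Of 8 fibroblast and pericyte markers 2 passed, Pdgfra and Col1a1, the sum was 1411 to 1489 in DMSO and 1007 to 1096 in P3FI-90, and Lum was at 0. Nearly all of that sum was Pdgfra, with means of 1355 in DMSO and 958 in P3FI-90. Among hormone receptors Pgr was at 0, and Esr1 had 292.7 ± 20.6 normalized counts in DMSO and 295.5 ± 21.4 in P3FI-90 (SD, n = 3). Kdm3b, whose protein the compound is meant to inhibit, had a log2 fold change of 0.13 (SE 0.043, edgeR adjusted p = 0.0169), and its mRNA does not check the inhibition of the enzyme.

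The promoter sequences of the genes are shown first, for the receptors that moved apart (Erbb2 and Egfr) and for the pair of genes that hold the same response element (Errfi1 and Areg). RefSeq's table on GRCm38.p6 held 7 of the 10 genes, with 2 start sites for Errfi1. Erbb3, Ereg and Hbegf were not matched. Each sequence runs 5′ to 3′ from 250 bases before to 50 bases after the start site. Capitals mark matches on either strand to the cyclic AMP response element (CRE) TGACGTCA, the AP-1 motif TGANTCA, the AP-2 motif GCCNNNGGC, the TATA box TATAAA, the GC box GGGCGG and the CCAAT box CCAAT.
Erbb2, chr11:98412234-98412533, plus strand: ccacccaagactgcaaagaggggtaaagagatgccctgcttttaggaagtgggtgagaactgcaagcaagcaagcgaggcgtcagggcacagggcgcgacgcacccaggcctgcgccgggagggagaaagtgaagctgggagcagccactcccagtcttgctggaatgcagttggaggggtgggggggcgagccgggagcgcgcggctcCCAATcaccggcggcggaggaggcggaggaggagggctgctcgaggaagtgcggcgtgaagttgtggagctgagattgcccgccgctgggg
Egfr, chr11:16751953-16752252, plus strand: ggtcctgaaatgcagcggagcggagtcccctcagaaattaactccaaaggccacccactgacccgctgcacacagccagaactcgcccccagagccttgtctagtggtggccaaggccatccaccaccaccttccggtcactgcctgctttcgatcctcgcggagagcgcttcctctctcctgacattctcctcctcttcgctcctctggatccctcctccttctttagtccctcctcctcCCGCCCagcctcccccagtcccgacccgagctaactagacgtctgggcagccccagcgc
Errfi1, chr4:150854820-150855119, plus strand: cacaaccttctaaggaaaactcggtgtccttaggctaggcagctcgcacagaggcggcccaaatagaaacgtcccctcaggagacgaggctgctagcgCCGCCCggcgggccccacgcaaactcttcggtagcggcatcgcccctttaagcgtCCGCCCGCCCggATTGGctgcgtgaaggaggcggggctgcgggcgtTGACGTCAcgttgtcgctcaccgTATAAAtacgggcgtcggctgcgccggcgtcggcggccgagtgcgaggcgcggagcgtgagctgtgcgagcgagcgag
Areg, chr5:91139349-91139648, plus strand: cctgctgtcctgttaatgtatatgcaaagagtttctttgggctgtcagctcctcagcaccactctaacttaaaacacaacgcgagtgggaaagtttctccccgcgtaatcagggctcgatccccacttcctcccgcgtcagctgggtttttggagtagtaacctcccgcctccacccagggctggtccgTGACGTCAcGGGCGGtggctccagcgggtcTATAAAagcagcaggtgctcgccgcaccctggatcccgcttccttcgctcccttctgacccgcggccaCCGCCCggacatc
The Errfi1 and Areg promoters each held 1 CRE and 1 TATA box. They also held GC boxes, 3 in Errfi1 and 2 in Areg, and Errfi1 held 1 CCAAT box. A CRE was present in 1.79% of the 32851 promoter entries of the table and a TATA box in 13.6%. The Erbb2 promoter held 1 CCAAT box, a motif present in 37.4% of entries, and the Egfr promoter 1 GC box, present in 35.7%. The 2 promoters differed little in base content, with 66.0% G and C in Erbb2 and 62.3% in Egfr, against a median of 52.7% over all entries. The Errfi1 and Areg windows had GC contents of 66.7% and 59.3%. Neither the AP-1 motif nor the E-box CACGTG occurred in any of the 8 entries of these genes, against 7.81% and 7.15% of all entries. The AP-2 motif was found in the Tgfa entry alone, 2 times, where 1 match overlapped a GC box, and it was present in 16.6% of all entries. In all, the Tgfa entry held 2 GC boxes. The Epgn entry held 1 TATA box and 1 CCAAT box, and the other start site of Errfi1 and the entry of Btc held none of these motifs. Of the 2 genes with a CRE, Errfi1 fell and Areg did not pass the test. These matches describe the letters in the window and were not tested as sites.

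Among the receptors, Erbb2 (ENSMUSG00000062312) had 2854, 2611 and 2645 normalized counts in the DMSO libraries and 1203, 1133 and 1206 in the P3FI-90 libraries. Every treated library was below every control, with little spread in either group. The mean fell from 2703 ± 131 to 1181 ± 41.4 (SD, n = 3), and the log2 fold change was −1.20 (SE 0.054, edgeR adjusted p = 8.12e-11). The size of this change exceeded that of 82.8% of all genes tested. Erbb3 (ENSMUSG00000018166) had 1089, 1219 and 1108 normalized counts in DMSO and 543, 527 and 494 in P3FI-90, again without overlap. Its mean went from 1139 ± 70.1 to 521 ± 25.0 (SD, n = 3), and the log2 fold change was −1.13 (SE 0.075, edgeR adjusted p = 5.16e-09). Egfr (ENSMUSG00000020122) moved the other way, from 218, 260 and 200 normalized counts in DMSO to 334, 366 and 382 in P3FI-90. The lowest treated library was above the highest control, although Egfr varied more in DMSO than the other receptors, with a coefficient of variation of 13.7% against 4.86% for Erbb2 and 6.15% for Erbb3. Its log2 fold change was 0.68 (SE 0.13, edgeR adjusted p = 2.85e-04), with a 95% interval of 0.40 to 0.96. Egfr has 11326 exon bases and belongs to the longest bin of genes, in which the median log2 fold change was 0.26 and 55.6% of genes were higher. Erbb2 lies in the middle bin (median −0.02) and Erbb3 in the next longer one (median 0.10). The part of gene length in these values was not tested. Erbb4, the remaining receptor of the family, had 0 counts in all 6 libraries, which allows up to 3 counts per library, or 0.0802 to 0.0958 CPM. Such limits cover counting error only, and they take each count as a separate fragment, which was not tested.

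**Figure D1:**
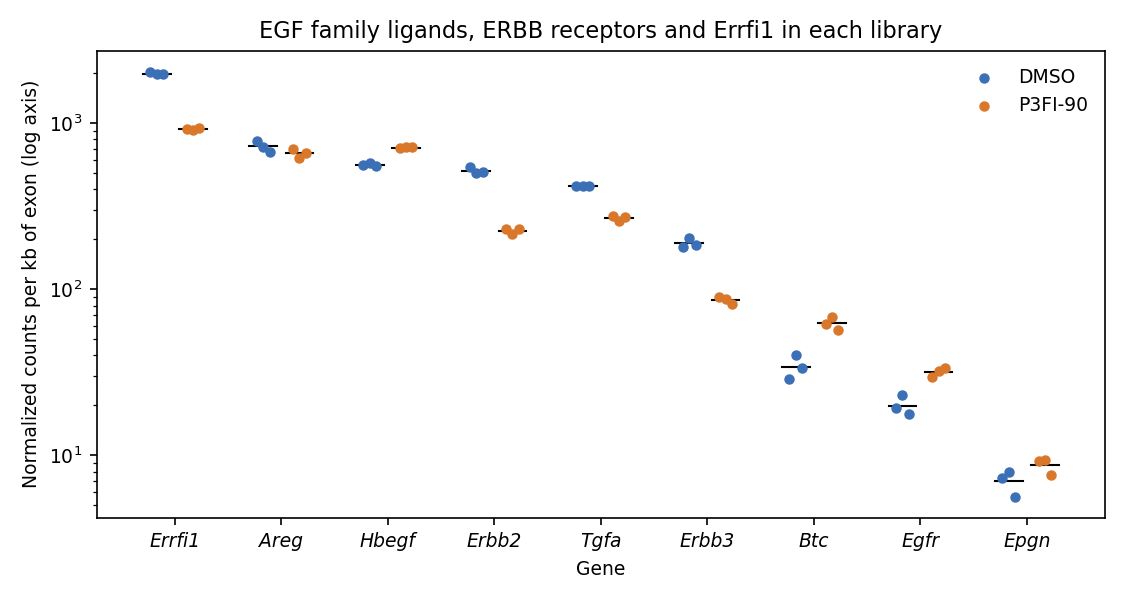
Normalized counts per kilobase of exon (log axis) for each gene with counts, in order of the DMSO mean. Each point is 1 library (blue, DMSO; orange, P3FI-90; 3 per group) and each line a group mean, and Erbb2 drops from 519 to 227 while Egfr climbs from 19.9 to 31.8.

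Errfi1 (ENSMUSG00000028967) was the most abundant of the 10 genes in DMSO and fell by nearly the same factor as Erbb2 and Erbb3. It had 7307, 7109 and 7074 normalized counts in DMSO and 3330, 3269 and 3372 in P3FI-90. The replicates were tight, with coefficients of variation of 1.76% and 1.55%, and the groups lay far apart. The log2 fold change was −1.11 (SE 0.035, edgeR adjusted p = 1.85e-12), with a 95% interval of −1.18 to −1.03. Genes of its length bin had a median log2 fold change of −0.11. The intervals of Erbb2 (−1.31 to −1.08) and Erbb3 (−1.29 to −0.96) overlap that of Errfi1.

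Of the ligands, Areg and Hbegf had the highest levels per kilobase of exon. Areg (ENSMUSG00000029378), which encodes amphiregulin, had 952, 878 and 816.5 normalized counts in DMSO and 852, 757 and 804 in P3FI-90. The highest treated library was above the lowest control, and the groups overlapped. The log2 fold change was −0.13 (SE 0.078, edgeR adjusted p = 0.131), and its 95% interval ran from −0.30 to 0.03. Across the alternatives the adjusted p of Areg ranged from 0.0488 to 0.402 (edgeR, DESeq2 or limma). It passed the threshold only without the third DMSO library, where its log2 fold change was −0.19. Scaling by total counts turned its sign, to 0.08 (edgeR adjusted p = 0.35).

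Hbegf (ENSMUSG00000024486), the gene of heparin-binding EGF, had 2700.0, 2794 and 2678 normalized counts in DMSO and 3429, 3465 and 3464 in P3FI-90. All treated libraries were above all controls. The coefficient of variation of the treated libraries was 0.59%, an estimate from 3 libraries that can fall below the true spread. The rise was small, with a log2 fold change of 0.34 (SE 0.042, edgeR adjusted p = 3.78e-06), and the change of 33.0% of all genes tested was no larger. Tgfa (ENSMUSG00000029999), the gene of transforming growth factor alpha, had 2714, 2710 and 2733 normalized counts in DMSO and 1804, 1685 and 1765 in P3FI-90. Here every treated library was below every control, and the log2 fold change was −0.63 (SE 0.048, edgeR adjusted p = 2.19e-08). Part of the Tgfa transcript, 1.08% of its 50-base windows, also occurs in Gm43917, an annotated gene on the opposite strand that is no row of the table. Hbegf and Tgfa, at nearly the same count in DMSO, thus moved apart. The level of Hbegf per kilobase was 1.35 ± 0.035 times that of Tgfa in DMSO and 2.65 ± 0.11 times in P3FI-90 (SD, n = 3, exact permutation test, two-sided, p = 0.1).

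The remaining ligands were less abundant. Btc (ENSMUSG00000082361), the gene of betacellulin, rose from 130.5, 182 and 151 normalized counts in DMSO to 279, 308 and 258.6 in P3FI-90. The groups did not overlap, although the controls spread over a coefficient of variation of 16.7%. Its log2 fold change was 0.87 (SE 0.16, edgeR adjusted p = 1.48e-04), with a 95% interval of 0.54 to 1.21, the largest rise among the 10 genes. Epgn (ENSMUSG00000035020), which encodes epigen, was near the limit of the filter, with 13, 12 and 10 raw counts in DMSO and 18, 19 and 14 in P3FI-90. Its normalized counts overlapped between groups, and the 95% interval of the log2 fold change, from −0.67 to 1.34 around 0.34, spans both directions, so that a difference was not detectable at this depth (edgeR adjusted p = 0.514). Ereg (ENSMUSG00000029377) had 0 counts in all 6 libraries, with the same limit as Erbb4.

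**Figure D2:**
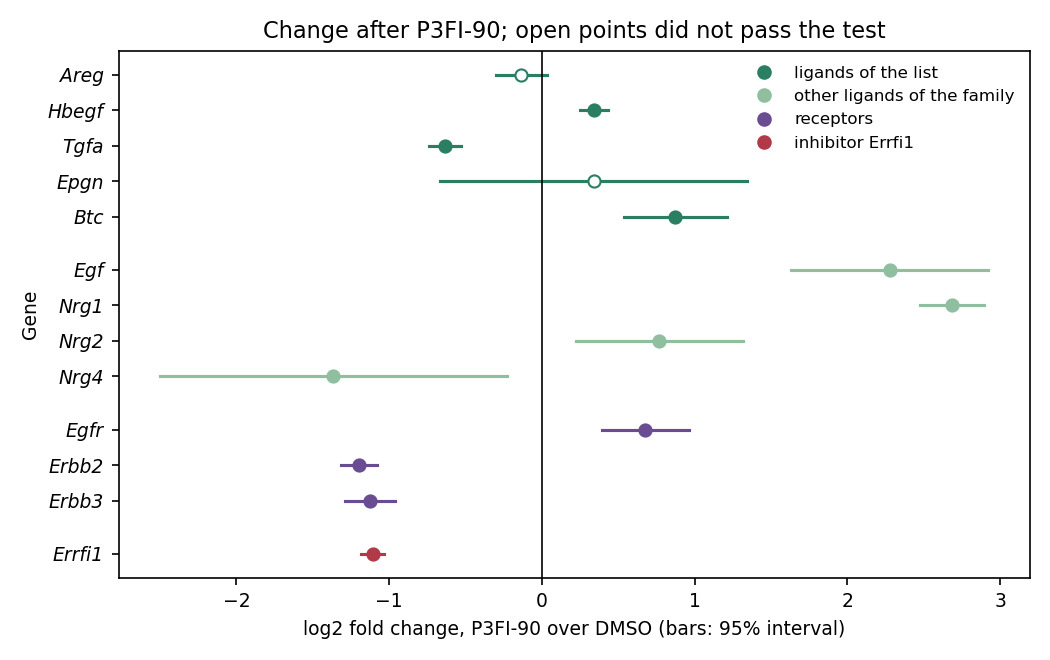
Log2 fold change of P3FI-90 over DMSO for the tested genes of the 10 and the tested other ligands of the family, with 95% intervals from the edgeR fit over 3 libraries per group; filled points passed an adjusted p under 0.05, and Areg and Epgn (open) did not. Erbb2, Erbb3 and Errfi1 lie together near −1.1 to −1.2, and Egfr, Hbegf and Btc lie above 0.

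Levels of different genes were compared per kilobase of annotated exon. In DMSO the order was Errfi1 (2000 normalized counts per kilobase), Areg (726), Hbegf (564), Erbb2 (519), Tgfa (419), Erbb3 (189), Btc (34.2), Egfr (19.9), Epgn (6.97) and Ereg (0). No neighbours in this order overlapped over the 3 libraries, but Hbegf (554 to 578) and Erbb2 (501 to 548) came close. After P3FI-90, Hbegf (714) stood above Areg (662) and Tgfa (270) above Erbb2 (227), and the other places were kept. This order depends on the length used. With the longest transcript of each gene in place of all exons, Hbegf (943) was already above Areg (726) in DMSO and Tgfa (601) above Erbb2 (539), and in P3FI-90 Hbegf (1190) passed Errfi1 (1090).

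The summed level of the 6 listed ligands was 1750 ± 57.1 normalized counts per kilobase in DMSO and 1717 ± 41.0 in P3FI-90 (SD, n = 3), with overlapping groups (exact permutation test, two-sided, p = 0.4). This depends on the scaling, since by total counts the sum was 1621 ± 51.4 in DMSO and 1846 ± 44.0 in P3FI-90 (SD, n = 3), 1.14-fold higher and without overlap (exact permutation test, p = 0.1). Both ligand sums leave out Egf and the neuregulins, of which 3 were higher and 1 lower, against 39.9% and 39.4% of all genes tested. Among the ligands left out, Nrg1 went from 46.0 normalized counts per kilobase in DMSO to 294 in P3FI-90. The sums therefore do not describe all ligands of the family. The summed level of the 3 receptors was 748, 727 and 710 in DMSO and 351, 337 and 347 in P3FI-90, which is 2.11-fold lower and without overlap (exact permutation test, p = 0.1), and 1.82-fold lower by total counts. Shares and ratios within a library, in contrast, do not depend on how libraries are scaled. In the ligands, Hbegf went from 32.2% ± 0.98 of the sum in DMSO to 41.6% ± 1.21 in P3FI-90, and Tgfa from 24.0% ± 0.90 to 15.7% ± 0.20 (SD, n = 3). The share of Btc was 1.96% ± 0.34 in DMSO and 3.64% ± 0.38 in P3FI-90, and that of Areg 41.5% ± 1.95 and 38.5% ± 1.34. The groups did not overlap in the share of any of these 4 ligands, and each gave the smallest exact permutation p, 0.1. For Areg the groups were apart only by 39.85% against 39.84%. The length bin of Areg had a median log2 fold change of −0.28, that of Hbegf and Btc −0.02 and that of Tgfa 0.10. The part of gene length in these ligand shares was not tested.

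In the receptors, Egfr made up 2.57%, 3.16% and 2.49% of the summed level in the DMSO libraries and 8.41%, 9.58% and 9.71% in the P3FI-90 libraries. It was still the smallest part in every library. The ratio of Egfr to Erbb2 was 0.035, 0.046 and 0.035 in DMSO and 0.128, 0.149 and 0.146 in P3FI-90, a 3.67-fold difference on the log scale without overlap (exact permutation test, two-sided, p = 0.1). The ratio of Erbb3 to Erbb2, in contrast, was 0.330, 0.404 and 0.363 in DMSO and 0.391, 0.403 and 0.355 in P3FI-90. These groups overlapped (exact permutation test, p = 0.7), and the log2 ratio differed by 0.07 against SDs of 0.15 and 0.096. Errfi1 transcripts per kilobase outnumbered those of Egfr by 106, 86.4 and 112 to 1 in DMSO. In P3FI-90 they did so by 31.5, 28.2 and 27.9 to 1, a 3.46-fold smaller ratio (exact permutation test, p = 0.1). The length bins of Egfr, Erbb3, Erbb2 and Errfi1 had median log2 fold changes of 0.26, 0.10, −0.02 and −0.11. The part of gene length in these shares and ratios was not tested.

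**Figure D3:**
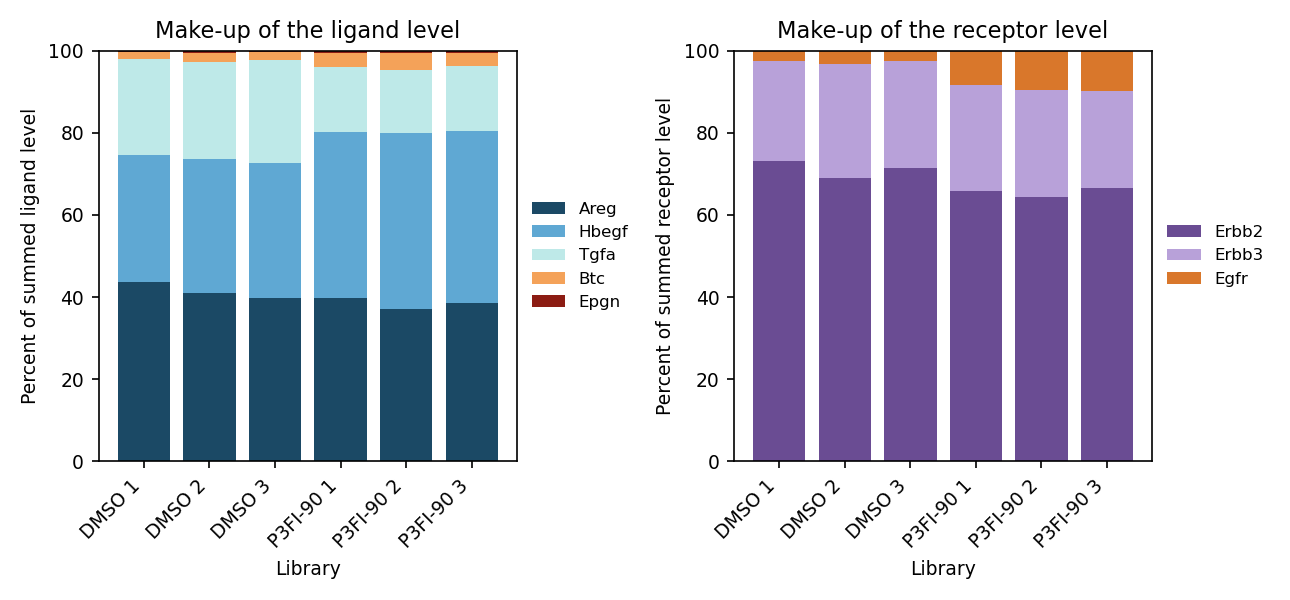
Percent of the summed length-normalized level taken by each ligand (left) and each receptor (right) in each of the 6 libraries; bars add to 100% and Ereg, at 0 counts, is not drawn. Hbegf widens from 32.2% to 41.6% of the 6 listed ligands on average, and Egfr from 2.74% to 9.23% of the receptors.

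Outside the 10 genes, 4 further ligand genes of the family were tested. Of these, 3 were higher and 1 lower, against 39.9% and 39.4% of all genes tested. Nrg1, a neuregulin that binds ERBB3 and ERBB4, had 499.9, 553 and 375 normalized counts in DMSO and 2978, 3028 and 3126 in P3FI-90. The treated libraries were far above the controls, 6.42-fold on average (log2 fold change 2.68, SE 0.097, edgeR adjusted p = 7.81e-12). Per kilobase, Nrg1 thereby went from 46.0 to 294 normalized counts, close to Tgfa (270) in P3FI-90. Egf itself had only 13, 20 and 18 raw counts in DMSO and 96, 95 and 95 in P3FI-90, a log2 fold change of 2.28 (SE 0.30, edgeR adjusted p = 7.57e-06). Nrg2 rose by 0.77 on the log2 scale (SE 0.25, edgeR adjusted p = 0.0125). Nrg4 was called lower (log2 fold change −1.36, SE 0.53, edgeR adjusted p = 0.0287), but its groups overlapped at 30.4 normalized counts in the first DMSO library and 31.8 in the first P3FI-90 library. Its call was lost without the second or the third DMSO library and without the second or the third P3FI-90 library. The call was also lost with the replicate number as a block and under scaling by total counts. When 10 counts were needed in every library, Nrg4 was not tested, since the third P3FI-90 library held 5. Nrg3 had no counts. The part of gene length in the changes of Egf and the neuregulins was not tested.

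The position of the genes was taken from RefSeq's gene order on GRCm38.p6. Epgn, Ereg, Areg and Btc follow each other on chromosome 5, with no other protein-coding gene between them. Of these neighbours Btc rose, Areg and Epgn did not pass the test and Ereg had no counts. On their flanks Mthfd2l, before Epgn, fell (log2 fold change −0.97) and Parm1, after Btc, rose (1.10, edgeR adjusted p = 0.0228). Erbb2 lies between Pgap3 and Mien1 on chromosome 11. Pgap3 and Mien1 did not pass the test, with log2 fold changes of 0.17 and 0.00 (edgeR adjusted p = 0.413 and 0.978), whereas Grb7, the next gene after Mien1 and an adaptor that binds ERBB receptors, fell from 2590 ± 99.4 to 802 ± 93.8 normalized counts (SD, n = 3, log2 fold change −1.69, SE 0.073). Beside Erbb3, Pa2g4 (−1.38) and Rps26 (−0.87) fell as well. Beside Errfi1, Park7 fell (−1.06) and Slc45a1 had no counts. Beside Tgfa, Add2 (−4.485) and Fam136a (−0.82) fell. Beside Egfr, Fbxo48 rose (1.32) and Sec61g fell (−0.67). Beside Hbegf, Pfdn1 fell (−0.18) and Slc4a9 was below the filter. Whether neighbouring genes changed together was not tested. The exons of Erbb2 and Mien1 overlap by 9 bases on opposite strands, and whether the counting used strand is not given in the sources used here. None of the 50-base windows of Areg, Hbegf, Epgn, Btc, Erbb2, Erbb3 or Errfi1 occurs in another annotated gene, and for Egfr the share is 0.231%. The 3 genes whose centred log2 CPM over the 6 libraries lay closest to Egfr were Mtrfr, Zfp995 and Rad54b, at Euclidean distances of 0.0571, 0.132 and 0.135. Those closest to Areg were 2310011J03Rik, Tmem54 and Ube2v2, at 0.0299, 0.0593 and 0.078.

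Of 10 genes that cut and traffic the ligands 9 were tested, with 6 lower and 2 higher, against 39.4% and 39.9% of all genes tested, and a median log2 fold change of −0.17. Adam17, the main sheddase of amphiregulin, HB-EGF and TGFα, fell from 4864 ± 101 to 2550.0 ± 36.2 normalized counts (SD, n = 3), or by 0.93 on the log2 scale (SE 0.039, edgeR adjusted p = 3.74e-11). Rhbdf1 and Rhbdf2, whose iRhom products bring ADAM17 to the surface, fell by 0.57 and 0.20 on the log2 scale, and Nkd2, which carries TGFα to the membrane, by 0.97. Adam12, another metalloprotease that cuts EGF ligands, rose by 0.98, and Frmd8, which stabilizes iRhoms, by 0.17. Under scaling by total counts 3 of these genes were lower and 4 higher, and the fall of Rhbdf2 is smaller than the median shift of 0.21 which that scaling adds. Timp3, an inhibitor of ADAM17, was below the filter, with a mean of 0.67 normalized counts in DMSO and 4.69 in P3FI-90.

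Genes of receptor turnover and negative regulation formed the next list. They were grouped by topic, and whether each lowers or spares receptors in these cells was not tested. Of 17 genes 16 were tested, with 9 higher and 4 lower, against 39.9% and 39.4% of all genes tested, and a median log2 fold change of 0.39. The largest rises were in Lrig2 (1.89) and Lrig3 (1.495), relatives of the receptor antagonist Lrig1, in Cblb (1.42), a ubiquitin ligase that sends receptors to degradation, and in Socs4 (1.13). Cbl, the ligase best known for EGFR, rose from 3273 ± 126 to 6252 ± 165 normalized counts (SD, n = 3), and Lrig1 rose by 0.27 on the log2 scale. Rnf41, a ubiquitin ligase for ERBB3, rose by 0.52. The 4 lower genes, Stub1, Socs5, Ptpn1 and Sh3kbp1, had log2 fold changes between −0.30 and −0.17, and under scaling by total counts 11 genes of the list were higher and 0 lower. Cblc, Rnf126 and Usp8 did not pass the test, with log2 fold changes of −0.03, 0.11 and 0.09. Ptprg was below the filter, with no counts in DMSO and a mean of 7.24 normalized counts in P3FI-90. Longer genes were higher in general, and the part of gene length in this and the other pathway lists was not tested.

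Of 27 adaptors and kinases downstream of the receptors, all tested, 13 were higher and 10 lower, shares near the 39.9% and 39.4% of all genes tested, and the median log2 fold change was 0.09. The kinase gene Braf (1.47), the docking protein genes Gab2 (1.36) and Gab1 (1.02) and the PI3K subunit gene Pik3cb (1.33) rose most. Mapk3, the gene of ERK1, fell by 1.06 on the log2 scale, Akt1 by 0.94, Plcg1 by 0.51 and Nras by 0.50. Under scaling by total counts 19 genes of the list were higher and 6 lower.

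Genes that ERK signaling induces, among them its feedback inhibitors, were mostly lower. Of 24 genes, all tested, 17 were lower and 2 higher, against 39.4% and 39.9% of all genes tested, and the median log2 fold change was −0.54. Dusp6, the gene of an ERK phosphatase, had 3103, 3083 and 3146 normalized counts in DMSO and 622, 683 and 683 in P3FI-90, and every treated library was far below the controls (log2 fold change −2.23, SE 0.055, edgeR adjusted p = 1.71e-13). Egr3 fell by 2.23 on the log2 scale, Ier2 by 2.09 and Etv5, an ETS factor, by 2.06. Dusp4 and Spred1, both feedback inhibitors of the pathway, rose by 0.47 and 0.31. Among the Sprouty genes, Spry1 fell by 0.92, and Spry2 and Spry4 had log2 fold changes of −0.05 and 0.03 that did not pass the test (edgeR adjusted p = 0.65 and 0.845). Under scaling by total counts 14 genes of this list were lower and 5 higher.

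**Figure D4:**
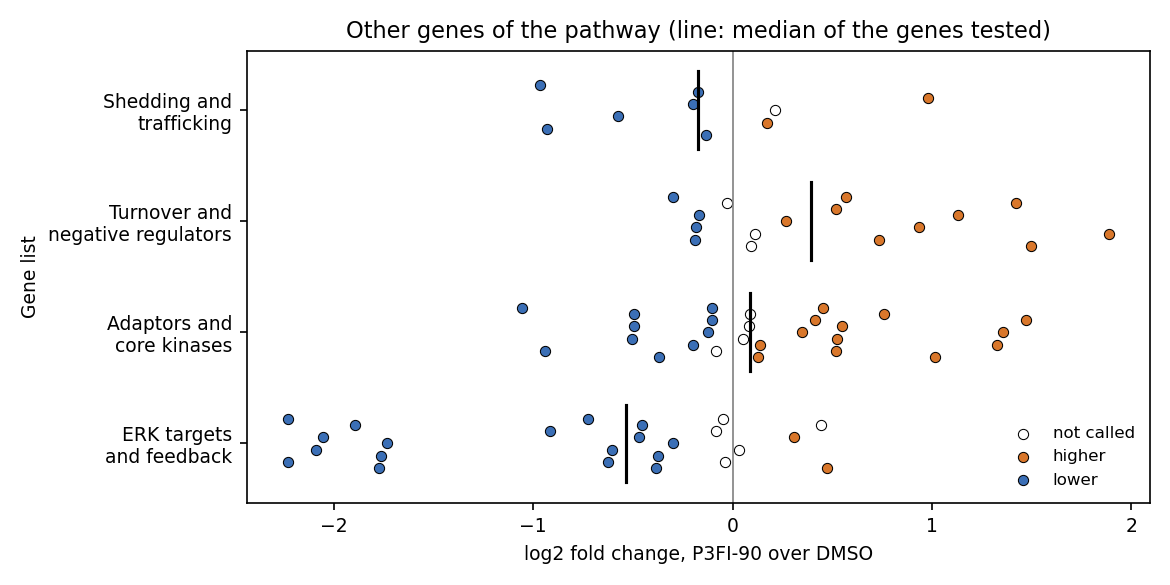
Log2 fold change of P3FI-90 over DMSO for each tested gene of 4 pathway lists; each point is 1 gene (orange, higher; blue, lower; white, not called at an adjusted p under 0.05) and each vertical line the list's median. The ERK target list lies mostly to the left (median −0.54). The list of receptor turnover and negative regulators lies mostly to the right (0.39). Gene length is not accounted for.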

How the data were processed

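The authors deposited 1 table of raw read counts, with 3 libraries of 4T1 cells per group. The submitters' processing notes name CASAVA, HISAT2, StringTie and GRCm39, without roles or versions, and annotation, counting tool and strandedness are not given in the sources used here. Rows of assembled transcripts (285) were left out.

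In R 4.3.3, genes were filtered by edgeR's filterByExpr, scaled by TMM and tested with edgeR 4.0.16 (quasi-likelihood, Benjamini-Hochberg over 12288 genes). Alternatives included limma 3.58.1, the tool the study names, and DESeq2 1.42.0. Exon lengths came from GENCODE M21 on GRCm38, another build than that of the counts, and matched 99.5% of named genes. No label says that equal replicate numbers mark a shared culture, so they were not treated as pairs. Replicates were not duplicates, with chi-square values per gene between 5.58 and 8.60. On counts simulated at the depths of these libraries (12267 genes), edgeR found 55 of 67 genes changed by 0.5 and 64 of 67 changed by 1 on the log2 scale, and 7.96% of its 201 calls were false, above the threshold of 0.05. The simulation changed few genes and gave all genes the same dispersion, whereas 79.3% of genes were called in the data. Its rates therefore do not carry over to this comparison.

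The 10 genes, the lists and the rule for naming genes (in each list the 4 largest called rises and falls, markers at 0, and the nearest profiles of Areg and Egfr) were chosen with earlier results of these data known. Neighbouring genes, genes below the filter, Cbl, Cblc, Lrig1, Rnf41, Rnf126, Usp8, Spry1, Spry2 and Spry4 were named after their values were seen.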

Additional observations from a re-analysis of the deposited data

How the results depend on the processing

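Scaling (total counts, upper quartiles, DESeq2 size factors), the filter (none, or 10 counts per library), the tool (DESeq2, limma-voom, limma on log2(CPM + 1)) and a block on replicate number were varied, and libraries were left out 1 at a time. Halved counts, the assembled transcripts and a wider ligand sum, and for the summed levels total counts and left-out libraries, were added after seeing the data. The 7 calls among the 10 genes kept direction and significance under all 17 alternatives, Epgn stayed uncalled in the 16 in which it was tested, and Areg was called in 1 (log2 fold change −0.19 without the third DMSO library, with a range of −0.192 to −0.0778 over the 6 fits that left out a library). The third DMSO library was the lowest of the controls for Areg. Over these 6 fits the genes called higher ranged from 4753 to 4907 and lower from 4692 to 4801, the lower calls among the 10 genes from 4 to 5, those among other ligands from 0 to 1, and the higher shedding genes from 1 to 3, with 1 without the third P3FI-90 library. Scaling by total counts gave 0 lower other ligands, 4 higher and 3 lower shedding genes and 0 lower genes of receptor turnover and negative regulation. This scaling also gave 6 lower and 19 higher adaptors and kinases and 5 higher ERK targets. It turned the log2 difference of the summed ligand level from −0.027 to 0.19, and that of the receptors was −0.86 against −1.08. It adds a median of 0.21 to every log2 fold change. It gave 6179 higher and 3641 lower genes in all, against 4908 and 4841. The filter of 10 counts left 0 lower other ligands, since it removed Nrg4 before the test.

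With the replicate number as a block, 9524 genes were called, 9498 of them shared with the 9749 called without it. The block removed the call of Nrg4 (0 lower other ligands) and changed no call among the 10 genes. As a check of pairing, the deviations from group means of libraries with the same number had correlations of −0.021, 0.015 and 0.0049. The difference in ligand share between P3FI-90 and DMSO, in percentage points, depends on gene length. Without length correction it was −0.84 for Areg, 12.8 for Hbegf, −14.1 for Tgfa and 2.10 for Btc, against −2.94, 9.39, −8.25 and 1.68. With the longest transcript it was 10.7 for Hbegf and −9.31 for Tgfa. With Egf and the neuregulins in the sum it was −7.56 for Areg, 3.92 for Hbegf, −9.87 for Tgfa and 1.17 for Btc. With each library left out, the log2 ratio of Erbb3 to Erbb2 differed by −0.0034 to 0.14, and that of Egfr to Erbb2 by 1.81 to 2.01. Counts of 10 to 19 limit what can be said of Epgn.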
